A study of Homo sapiens with 6 samples.

Results

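The mitochondrial ribosomal protein genes were taken as all genes whose symbol is MRPL or MRPS, a number and at most 1 further letter, which gave 78 of the 60611 genes in the deposited table, 49 named for the large subunit (MRPL) and 29 for the small subunit (MRPS). They were compared between 3 libraries of EndoC-BH5 cells given interferon gamma and interleukin 1 beta, 2 inflammatory cytokines, and 3 libraries of the same line given vehicle. EndoC-BH5 is a human pancreatic beta-cell line, labelled wild type in both groups, so all values come from a single line in culture. Each group has 3 batches, and no label tells if these were grown apart, so a p-value covers the variation among these libraries alone, which may be technical. Total counts ranged from 13689972 to 16175364 in cytokine libraries and from 5871481 to 15894082 in vehicle libraries, and the smallest library was vehicle replicate 1. Levels are counts relative to library size (CPM) after TMM scaling, which corrects for a change in the composition of the RNA pool, with mean ± SD over n = 3 libraries of each group. INS was present at 3641 ± 289.8 CPM in cytokine libraries and 4012 ± 163 CPM in vehicle libraries. All 10 beta-cell markers were detected and tested, of which 3 were higher and 7 lower, where 57.1% of all tested genes were called. Their log2 fold changes ran from -2.67 to 1.04, and their summed CPM was 1.36 times the vehicle level. Of 25 markers of other cell types 13 were tested, of which 3 were higher and 2 lower. Among the markers of other cell types CD68, of leukocytes, was at 21.4 ± 0.781 CPM in cytokine libraries and 5.14 ± 0.374 CPM in vehicle libraries, PDGFRB, of mesenchymal cells, rose by 2.01 on the log2 scale, GCG and KRT19 were lower at -0.79 and -0.25, and the acinar marker PRSS1 was at 0. The 25 markers summed to between 2673 and 2866 CPM in cytokine libraries and between 2588 and 2827 CPM in vehicle libraries, and their part in the results was not tested.

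The mitochondrial ribosome, or mitoribosome, translates the few mRNAs of the mitochondrial genome, which encode core subunits of the respiratory chain and of ATP synthase. Its RNAs come from mitochondrial DNA, whereas all of its proteins are encoded in the nucleus, made on cytosolic ribosomes and imported. Some of the proteins descend from bacterial ribosomal proteins and others were added in mitochondria, and in the structural naming the bacterial kind carries the prefix u or b and the mitochondria-specific kind the prefix m. In beta cells, ATP made by the respiratory chain couples glucose to insulin secretion.

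The members lie on 21 chromosomes. Windows of 300 bases around RefSeq transcript starts, 250 before and 50 after, were matched by symbol for 69 of the 78 genes in 85 windows on GRCh38.p14. Below are 280 bases, ending 30 bases after the start, for the member with the largest rise (MRPL44), another clear rise (MRPS30), the member with the largest fall (MRPS24), and 2 members that share a start region with a neighbour on the other strand and moved in different directions (MRPL32 and MRPL30). Capitals mark matches to the motif letters given after them. The windows lie at chr2:223957213-223957492, plus strand for MRPL44, chr5:44808697-44808976, plus strand for MRPS30, chr7:43869488-43869767, minus strand for MRPS24, chr7:42932126-42932405, plus strand for MRPL32 and chr2:99180934-99181213, plus strand for MRPL30.
MRPL44: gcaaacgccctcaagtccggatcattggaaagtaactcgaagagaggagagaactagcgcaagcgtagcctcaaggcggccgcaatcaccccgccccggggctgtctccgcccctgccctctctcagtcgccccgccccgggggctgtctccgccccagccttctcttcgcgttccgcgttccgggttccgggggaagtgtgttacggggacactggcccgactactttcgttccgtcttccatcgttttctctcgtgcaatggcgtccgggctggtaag
MRPS30: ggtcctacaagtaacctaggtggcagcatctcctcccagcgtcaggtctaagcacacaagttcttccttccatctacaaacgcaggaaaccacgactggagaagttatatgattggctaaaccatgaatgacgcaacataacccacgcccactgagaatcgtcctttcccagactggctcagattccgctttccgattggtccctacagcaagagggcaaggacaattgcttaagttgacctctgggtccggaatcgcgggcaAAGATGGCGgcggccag
MRPS24: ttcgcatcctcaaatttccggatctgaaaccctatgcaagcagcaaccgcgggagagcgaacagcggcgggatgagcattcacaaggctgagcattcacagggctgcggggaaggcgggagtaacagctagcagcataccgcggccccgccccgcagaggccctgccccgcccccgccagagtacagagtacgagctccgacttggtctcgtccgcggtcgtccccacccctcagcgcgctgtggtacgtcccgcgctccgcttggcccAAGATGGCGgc
MRPL32: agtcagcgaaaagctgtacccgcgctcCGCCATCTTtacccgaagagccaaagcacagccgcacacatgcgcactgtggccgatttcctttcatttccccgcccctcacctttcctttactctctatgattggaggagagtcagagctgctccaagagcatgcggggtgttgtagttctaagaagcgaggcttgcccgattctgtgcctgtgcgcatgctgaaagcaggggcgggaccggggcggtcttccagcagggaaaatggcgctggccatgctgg
MRPL30: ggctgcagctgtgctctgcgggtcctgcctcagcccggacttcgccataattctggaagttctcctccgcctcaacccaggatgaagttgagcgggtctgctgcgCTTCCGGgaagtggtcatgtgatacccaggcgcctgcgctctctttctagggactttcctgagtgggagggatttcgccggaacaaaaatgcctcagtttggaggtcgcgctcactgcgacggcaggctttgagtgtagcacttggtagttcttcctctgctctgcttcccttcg

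Motifs were searched on both strands as AAGATGGCG for YY1, CCGGAAG for ETS factors, GCGCATGCG for NRF1, and TTTCNNTTT for interferon regulatory factors. MRPS30 and MRPS24, 1 higher and 1 lower gene, both carried the YY1 letters just after the start, and MRPL32 carried them on the other strand before it. MRPL30 held the ETS letters on the other strand, and MRPL44 had none of the 4. No letters of one motif overlapped those of another in these windows. Over all 85 member windows, 33 held the ETS letters, or 38.8%, against 15.9% of the 17353 windows of tested genes. The YY1 letters were in 13 windows, or 15.3%, against 3.15%, and the NRF1 letters in 3 windows, or 3.53%, against 2.99%. The interferon regulatory factor letters were in 9 member windows, or 10.6%, against 7.62%. Divided by result of the expression test, the ETS letters were in 2 of 14 windows of members that were higher, 7 of 21 of members that were lower and 24 of 50 of the rest. The YY1 letters were in 4 of 14, 2 of 21 and 7 of 50 windows of these classes. These windows come from 10, 18 and 41 genes, since a gene with several starts has several windows. Some of these overlap and hold the same letters, so the counts are not counts of genes. These matches are descriptions of letters and not of binding.

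Mitochondrial ribosomal protein mRNAs changed in both directions after cytokine exposure, mostly by small amounts. Of the 78 members, all of which passed the filter on low counts, 10 were higher in cytokine libraries, 20 were lower and 48 did not pass the test (edgeR quasi-likelihood test, Benjamini-Hochberg adjusted p under 0.05 over all 17847 tested genes). The 30 called members are 38.5%, against 57.1% of all tested genes, with 12.8% higher against 28.3% and 25.6% lower against 28.8%. The median log2 fold change was -0.024 over the members and -0.019 over all tested genes. Only 2 of 30 called members, MRPL44 and MRPS24, reached 1.5-fold, or 2.56% of members, whereas 22.5% of all tested genes were called with a change of at least 1.5-fold. Of the 48 members that did not pass, 37 had a 95% interval of the fold change that lay within 1.25-fold of no change. Groups were without overlap in 32 members, 13 with all cytokine libraries above and 19 with all below, or 41.0% against 61.1% of all tested genes.

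The number of lower members depended on the libraries and on the scaling. It was 11 without cytokine replicate 1 and 11 without vehicle replicate 2, in both cases 3 MRPL and 8 MRPS genes. Over all tested genes 4576 and 4820 were lower in these fits, against 5142 with all libraries. Members took 0.197% to 0.209% of all counts in cytokine libraries and 0.233% to 0.242% in vehicle libraries. With libraries scaled by their size alone the median of all genes shifted to -0.22 on the log2 scale, and 3 members were higher and 47 lower. Over all 17847 tested genes, 2980 were higher and 8779 lower in that setting. On the TMM scale the 78 members summed to 2119, 2150 and 2238 CPM in cytokine libraries, and to 2175, 2278 and 2182 CPM in vehicle libraries, and the groups overlapped. A smaller amount of mRNA per cell and fewer cells that carry it cannot be told apart in bulk RNA.

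**Figure D1:**
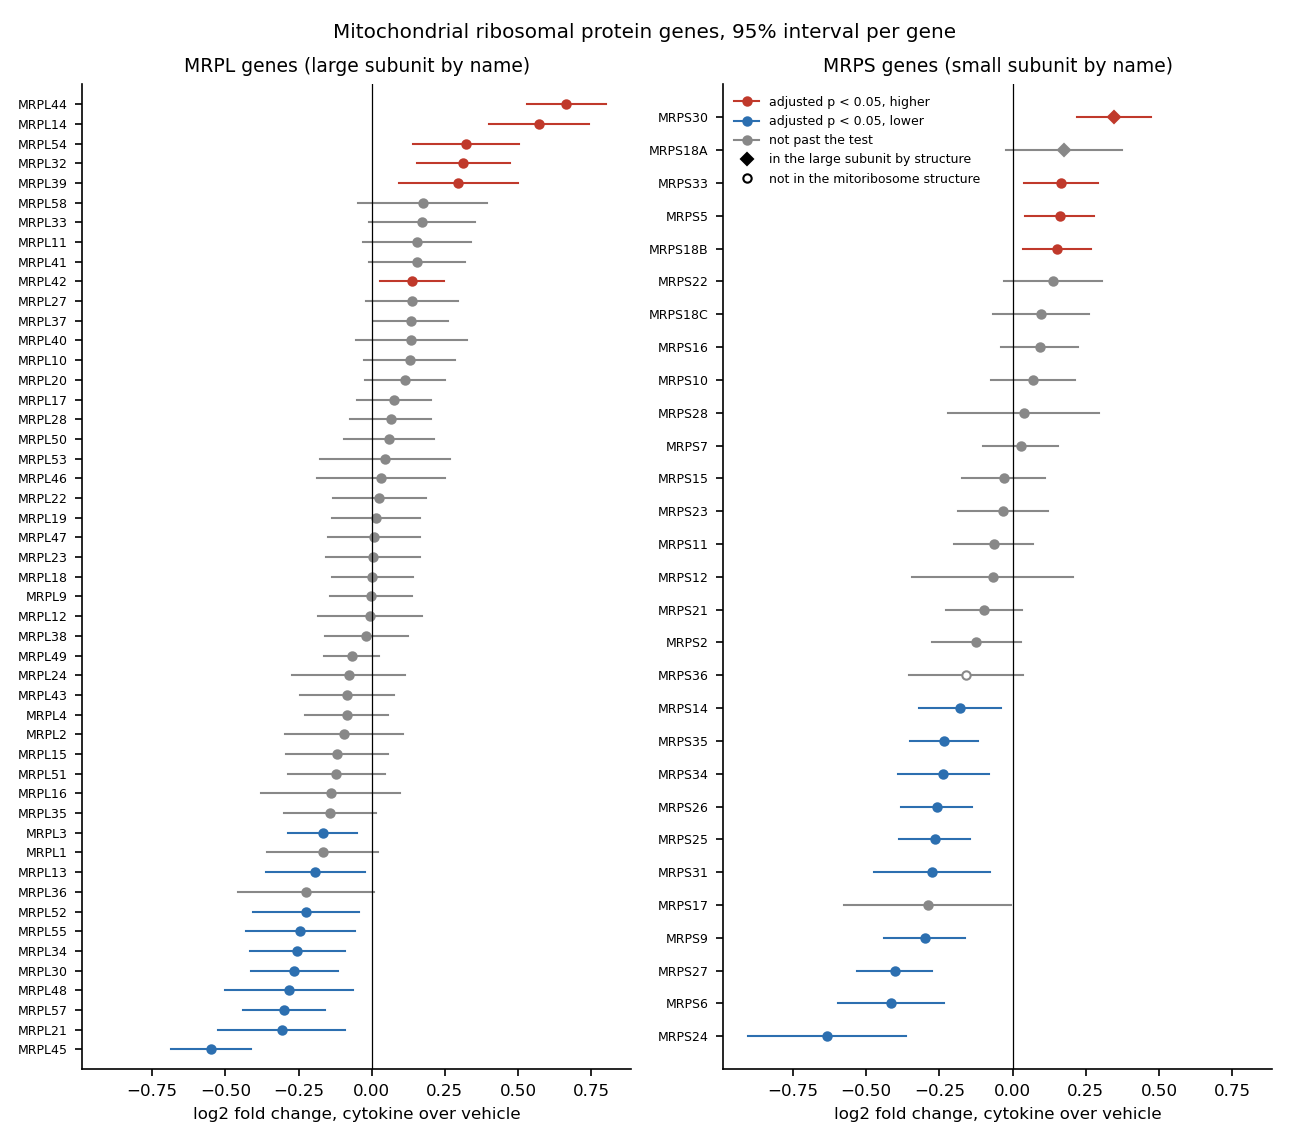
Each point is the log2 fold change (cytokine over vehicle, x axis) of 1 gene with its 95% interval, MRPL genes on the left and MRPS genes on the right, coloured by the edgeR test. The left panel has 6 higher and 10 lower genes, the right panel 4 higher and 10 lower; scaled by library size alone, 2 MRPL and 1 MRPS genes were higher.

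The same number of genes was lower in each subunit by name, out of unequal totals. Of 49 MRPL genes, 6 were higher, 10 lower and 33 not called, with a median log2 fold change of 0.0026. Of 29 MRPS genes, 4 were higher, 10 lower and 15 not called, with a median of -0.068. Names do not fully follow the structure: MRPS30 (mL65) and MRPS18A (mL66) sit in the large subunit, and MRPS36 is a component of the 2-oxoglutarate dehydrogenase complex and not of the mitoribosome. Placed by structure, 7 of 51 large-subunit genes were higher and 10 lower (median 0.0041), and 3 of 26 small-subunit genes were higher and 10 lower (median -0.083). The shares called were 33.3% of large-subunit and 50.0% of small-subunit genes, against 57.1% of all tested genes. By library size alone 29 MRPL and 18 MRPS genes were lower and 2 MRPL and 1 MRPS genes higher, where 8779 of all tested genes were lower and 2980 higher.

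In each library the median log2 level of MRPL genes, relative to the vehicle mean of each gene, was set against that of MRPS genes. The large-minus-small difference was 0.022, 0.064 and 0.074 in cytokine libraries, and -0.039, 0.023 and 0.014 in vehicle libraries. The groups overlapped, since cytokine replicate 1 fell just below vehicle replicate 2. By structure the difference was 0.057, 0.11 and 0.089 in cytokine libraries, and -0.028, 0.020 and 0.013 in vehicle libraries, and the groups did not overlap. The medians of the fold changes were 0.070 apart by name and 0.087 apart by structure, where the pooled SD of the difference between replicates was 0.031 by name and 0.026 by structure. MRPS genes summed to 880, 882 and 912 CPM in cytokine libraries and to 930, 948 and 922 CPM in vehicle libraries, with no overlap, a ratio of 0.955. For MRPL genes the sums were 1239, 1269 and 1326 CPM in cytokine libraries and 1245, 1330 and 1260 CPM in vehicle libraries, with overlap and a ratio of 1.00.

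The members were then divided by origin, to be read against 28.3% of all tested genes that were higher and 28.8% that were lower. Of the 10 members that are small-subunit mitochondria-specific genes, 6 were lower, 2 higher and 2 not called, with a median log2 fold change of -0.24. The class is limited by the naming rule, which leaves out small-subunit mitochondria-specific proteins with other symbols, PTCD3 and DAP3 among them. The 5 mitoribosomal proteins with other symbols, described below, ran from -0.19 to 0.30 and were not counted here. The 10 small-subunit mitochondria-specific members summed to 371, 373 and 379 CPM in cytokine libraries, and to 409, 419 and 403 CPM in vehicle libraries. These groups did not overlap. The 6 lower genes were MRPS27, MRPS31, MRPS25, MRPS26, MRPS34 and MRPS35, at -0.40 to -0.23, and the 2 higher ones MRPS33 and MRPS18B. The calls of MRPS27, MRPS25, MRPS26 and MRPS35 were kept without each library in turn, whereas that of MRPS31 was lost without cytokine replicate 2 or 3 or vehicle replicate 2 or 3, and that of MRPS34 without cytokine replicate 1 or vehicle replicate 1, and both were lost with DESeq2. Of 16 small-subunit proteins with bacterial homologs, 1 gene was higher and 4 lower (median -0.066). In the large subunit, 5 of 21 mitochondria-specific genes were higher, or 23.8%, and 4 lower, or 19.0% (median 0.058), and 2 of 30 genes with bacterial homologs were higher and 6 lower (median -0.0047). The classes hold few genes, and the difference between them was not tested.

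**Figure D2:**
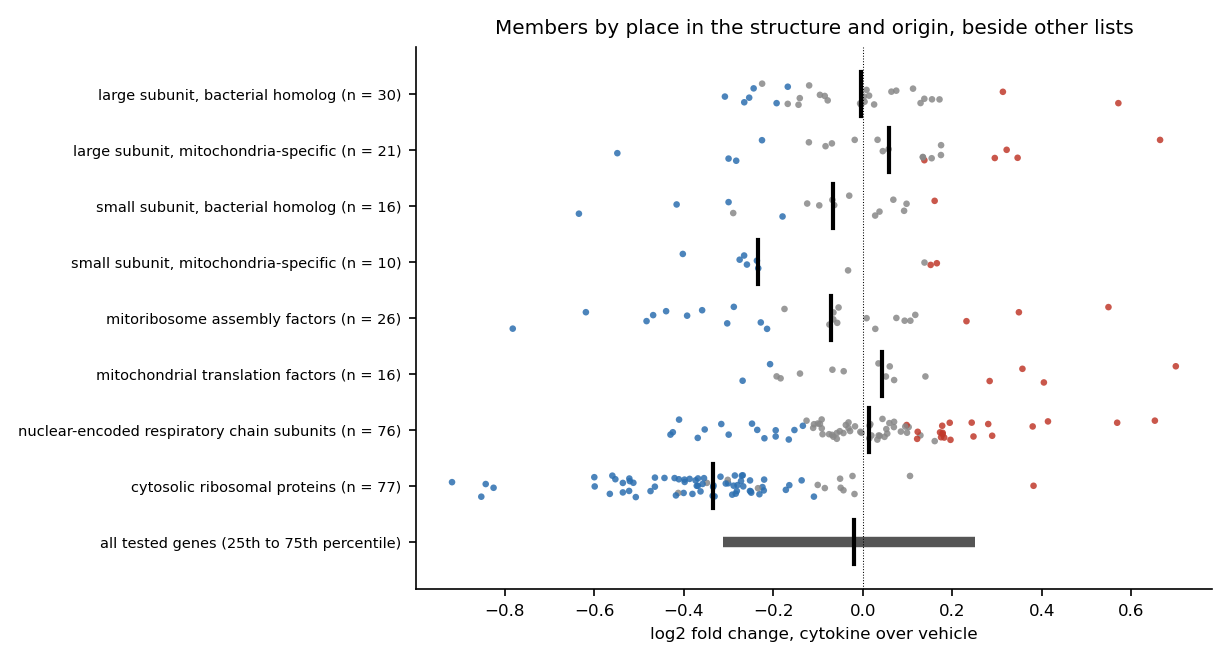
Points are log2 fold changes (cytokine over vehicle, x axis) of single genes, coloured red for higher, blue for lower and grey for not called, with the median as a black bar; the grey bar spans the middle of all tested genes. The small-subunit mitochondria-specific MRP genes have a median of -0.24 and cytosolic ribosomal protein genes one of -0.33, while the other 3 classes of MRP genes have medians between -0.066 and 0.058.

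MRPL44 rose the most. It encodes mL44, a mitochondria-specific protein with a ribonuclease III-like fold near the polypeptide exit, and lies at chr2:223957404-223967714, plus strand in GRCh38. It had 37.7, 37.4 and 36.9 CPM in the cytokine libraries, against 22.9, 23.4 and 24.0 CPM in the vehicle libraries, each set in the order of replicates 1, 2 and 3. All cytokine libraries were above all vehicle libraries, with a spread within each group far smaller than the gap. The log2 fold change was 0.66 (SE 0.0664; edgeR quasi-likelihood test, adjusted p = 8.13e-10), or 1.59-fold.

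MRPL14, at chr6:44113454-44127457, minus strand, encodes uL14m, which lies at the interface with the small subunit and binds the assembly factor MALSU1. It had 23.0, 24.5 and 25.3 CPM in the cytokine libraries, against 13.7, 16.7 and 17.1 CPM in the vehicle libraries. The groups were well apart, with vehicle replicate 1 the lowest (log2 fold change 0.57, SE 0.0829; edgeR, adjusted p = 8.46e-07). MRPL44 and MRPL14 were higher in all 15 alternative settings, scaling by library size alone included.

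MRPS30 encodes mL65, a large-subunit protein also known as programmed cell death protein 9, and had 43.7, 44.3 and 40.8 CPM in the cytokine libraries, against 34.0, 33.4 and 33.9 CPM in the vehicle libraries. Its groups did not overlap (log2 fold change 0.35, SE 0.0624; edgeR, adjusted p = 2.31e-05). MRPL32 encodes bL32m, whose maturation by the m-AAA protease is a step of ribosome assembly in yeast and mouse. It had 22.6, 20.8 and 23.0 CPM in the cytokine libraries, against 17.5, 18.1 and 17.8 CPM in the vehicle libraries, again without overlap (log2 fold change 0.31, SE 0.0778; edgeR, adjusted p = 0.00104).

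MRPL54 and MRPL39, of the large subunit, rose by about as much with more spread. MRPL54 (mL54) had 24.0, 25.3 and 28.7 CPM in the cytokine libraries, against 21.1, 23.8 and 18.5 CPM in the vehicle libraries. Its cytokine replicate 1 was just above vehicle replicate 2 (log2 fold change 0.32, SE 0.0883; edgeR, adjusted p = 0.00277), and without vehicle replicate 3 the change was 0.19 and no longer called. MRPL39, which encodes mL39, a protein related to threonyl-tRNA synthetase, had 15.5, 16.4 and 20.4 CPM in the cytokine libraries, against 12.7, 14.5 and 14.6 CPM in the vehicle libraries. Cytokine replicate 3 was the highest (log2 fold change 0.30, SE 0.0991; edgeR, adjusted p = 0.0122), and without it the change was 0.18 and no longer called. By library size alone MRPL32, MRPL54 and MRPL39 stayed above zero, at 0.11, 0.12 and 0.093, without passing the test, and the call of MRPL39 was also lost with DESeq2.

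Of the small-subunit rises, MRPS33, for mS33, had 48.6, 49.5 and 50.3 CPM in the cytokine libraries, against 41.8, 48.0 and 42.3 CPM in the vehicle libraries. MRPS5, for uS5m, whose bacterial homolog lies near the mRNA entry channel and the decoding site, had 50.7, 49.4 and 52.6 CPM in the cytokine libraries, against 46.4, 45.2 and 45.4 CPM in the vehicle libraries. In both genes all cytokine libraries were above all vehicle libraries, by log2 fold changes of 0.17 and 0.16 (edgeR, adjusted p = 0.0223 and 0.0175). Scaled by library size alone both were below zero, at -0.036 and -0.041, and both calls were lost with DESeq2 and without vehicle replicate 3, that of MRPS33 also without vehicle replicate 1. MRPL42, for mL42, rose by 0.14 on the log2 scale (edgeR, adjusted p = 0.0308), was -0.064 by library size alone, and lost its call with DESeq2 and without cytokine replicate 2, vehicle replicate 1 or vehicle replicate 2.

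MRPS24 fell the most. It encodes uS3m, whose bacterial homolog lines the mRNA entry channel, lies at chr7:43866558-43869893, minus strand, and had 5.73, 5.11 and 7.39 CPM in the cytokine libraries, against 9.85, 10.4 and 8.66 CPM in the vehicle libraries. All cytokine libraries were below all vehicle libraries (log2 fold change -0.63, SE 0.131; edgeR, adjusted p = 1.39e-04). At this level, among the lowest of the members, the gene is also uncertain in its counting. Of its 2613 exonic bases over all annotated transcripts, 606 are shared on the same strand with the read-through gene URGCP-MRPS24. Its coding transcripts cover 787 bases, and how many of these are shared was not counted. URGCP-MRPS24 was at 8.26 CPM in cytokine libraries and 12.2 CPM in vehicle libraries, a log2 fold change of -0.54.

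MRPL45, at chr17:38297023-38323218, plus strand, encodes mL45, which lies at the exit of the tunnel and ties the mitoribosome to the inner membrane. It had 28.2, 25.8 and 25.5 CPM in the cytokine libraries, against 38.6, 40.1 and 38.0 CPM in the vehicle libraries. The cytokine libraries lay far below the vehicle libraries (log2 fold change -0.55, SE 0.0667; edgeR, adjusted p = 3.82e-08).

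MRPS27, for mS27, a pentatricopeptide repeat protein, had 40.6, 38.7 and 35.1 CPM in the cytokine libraries, against 48.3, 51.3 and 50.9 CPM in the vehicle libraries. The groups did not overlap (log2 fold change -0.40, SE 0.0627; edgeR, adjusted p = 2.72e-06). MRPS6, for bS6m, had 12.0, 12.9 and 13.8 CPM in the cytokine libraries, against 18.3, 16.8 and 16.9 CPM in the vehicle libraries. It did not overlap either (log2 fold change -0.42, SE 0.0883; edgeR, adjusted p = 1.88e-04), and 273 of its annotated exonic bases are shared with SLC5A3, which encodes a myo-inositol transporter and had a log2 fold change of -0.63. MRPS24, MRPL45, MRPS6 and MRPS27 were lower in all 15 alternative settings.

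Among smaller falls, MRPL57, for mL63, had 25.8, 24.7 and 27.2 CPM in the cytokine libraries, against 30.3, 32.7 and 32.1 CPM in the vehicle libraries. MRPS9, for uS9m, a homolog of a bacterial protein that reaches the P-site tRNA, had 26.7, 25.2 and 25.3 CPM in the cytokine libraries, against 32.3, 32.3 and 31.1 CPM in the vehicle libraries. Neither gene overlapped between the groups, and each fell by 0.30 on the log2 scale (edgeR, adjusted p = 4.32e-04 and 3.62e-04).

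In MRPL21 and MRPL48 the libraries overlapped. MRPL21, for bL21m, had 14.6, 14.4 and 17.2 CPM in the cytokine libraries, against 17.3, 23.2 and 17.0 CPM in the vehicle libraries. Vehicle replicate 2 stood above the other 5 libraries, and the log2 fold change of -0.31 (edgeR, adjusted p = 0.0141) was -0.14 and not called without it. The call was also lost without cytokine replicate 1 or 2. MRPL48, for mL48 of the central protuberance, had 9.72, 9.67 and 12.2 CPM in the cytokine libraries, against 11.0, 13.2 and 13.3 CPM in the vehicle libraries. Its log2 fold change was -0.28 (edgeR, adjusted p = 0.0248), with cytokine replicate 3 within the vehicle range, and the call was lost without cytokine replicate 1 or 2 and without vehicle replicate 2 or 3. Both genes lost their calls with DESeq2. The other 12 lower members, MRPS31, MRPS25, MRPL30, MRPS26, MRPL34, MRPL55, MRPS34, MRPS35, MRPL52, MRPL13, MRPS14 and MRPL3, fell by between 0.17 and 0.28 on the log2 scale. Of these, MRPL13 had the highest adjusted p (0.0465, edgeR) and was called in 3 of 15 alternative settings. The calls of MRPS25, MRPS26 and MRPS35 were kept with DESeq2 and without each library in turn, and that of MRPL30 was lost with DESeq2. The other 8 lost theirs with DESeq2 and without at least 1 of the libraries.

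**Figure D3:**
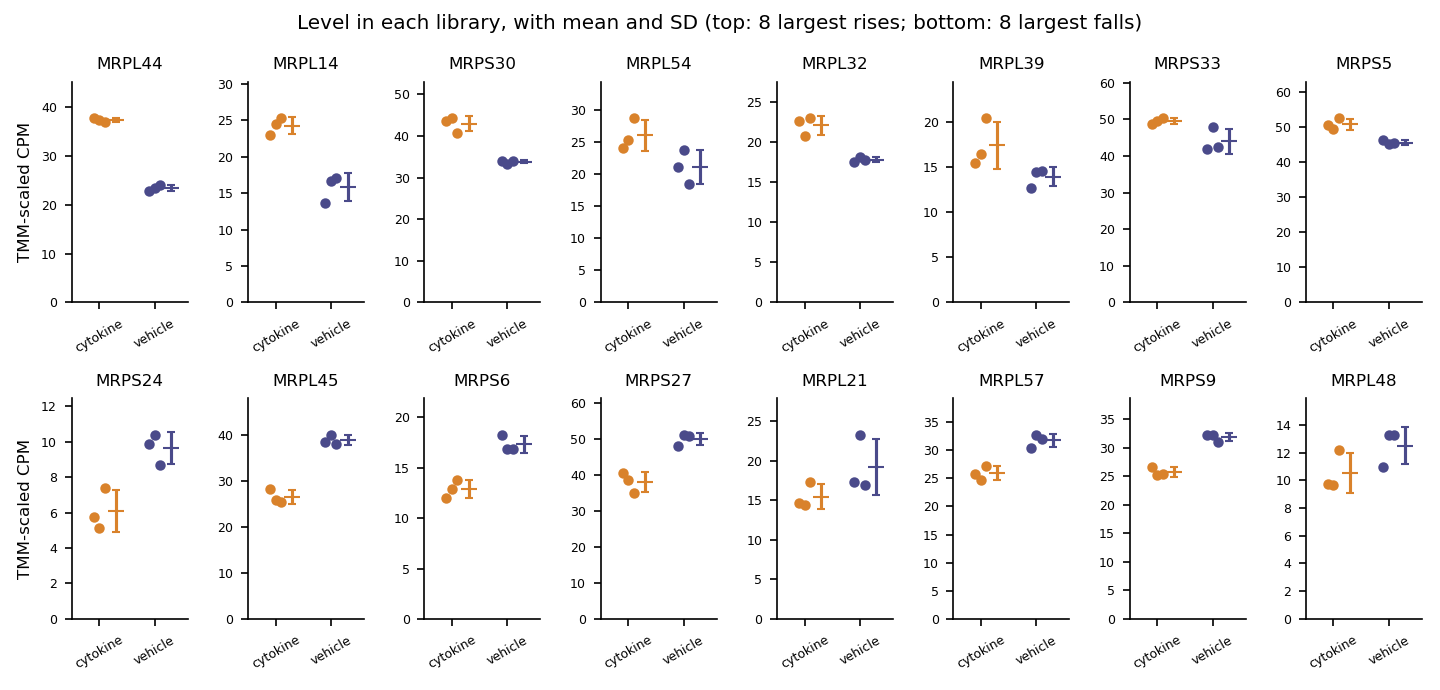
TMM-scaled CPM (y axis, from 0) of the 8 members with the largest rise (top) and the 8 with the largest fall (bottom), 1 point per library with the mean and SD beside them, cytokine libraries on the left of each panel. MRPL44 sits between 36.9 and 37.7 CPM in cytokine libraries and between 22.9 and 24.0 CPM in vehicle libraries, while MRPL21 and MRPL48 overlap.

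The paralogs MRPS18A, MRPS18B and MRPS18C occupy different places on the mitoribosome. MRPS18B (mS40, small subunit) had 50.4, 51.2 and 51.3 CPM in the cytokine libraries, against 44.3, 44.9 and 47.4 CPM in the vehicle libraries, with no overlap (log2 fold change 0.15, SE 0.0571; edgeR, adjusted p = 0.0244), a call lost with DESeq2 and without vehicle replicate 2. MRPS18A (mL66, large subunit) had 22.8, 21.9 and 18.3 CPM in the cytokine libraries, against 23.0, 17.2 and 17.7 CPM in the vehicle libraries. These overlapped, with a log2 fold change of 0.18 and a 95% interval of -0.022 to 0.37 (edgeR, adjusted p = 0.123), which passed the test at 0.28 without cytokine replicate 3 and at 0.27 without vehicle replicate 1. MRPS18C (bS18m, small subunit) had 19.7, 19.6 and 20.9 CPM in the cytokine libraries, against 20.0, 19.7 and 17.5 CPM in the vehicle libraries, also with overlap, and a log2 fold change of 0.10 with an interval of -0.066 to 0.26. By library size alone all 3 were below zero, at -0.050, -0.028 and -0.10 in the order B, A, C. MRPS36 had 13.4, 15.5 and 17.2 CPM in the cytokine libraries, against 17.8, 18.7 and 15.7 CPM in the vehicle libraries, with overlap and a log2 fold change of -0.16 (interval -0.36 to 0.036).

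Levels differed far more between members than between the groups. Group means ranged from 5.45 CPM for MRPS17 in cytokine libraries to 108.2 CPM for MRPL49 in vehicle libraries. Per kilobase of coding transcript, MRPL49 and MRPS26 were the highest of the large and of the small subunit in both groups. MRPL54 and MRPS18B came next in cytokine libraries, and MRPL18 and MRPS34 in vehicle libraries, at 35.8 and 33.9 CPM per kb. MRPL49, for mL49, had 48.1 ± 0.349 CPM per kb in cytokine libraries and 50.3 ± 1.30 in vehicle libraries. Its CPM were 103, 103 and 104 CPM in the cytokine libraries, against 105, 111 and 108 CPM in the vehicle libraries, so that all cytokine libraries were below all vehicle libraries with a log2 fold change of -0.069 that did not pass the test (edgeR, adjusted p = 0.209). MRPS26, for mS26, had 46.3 ± 2.87 CPM per kb in cytokine libraries and 55.9 ± 3.07 in vehicle libraries, and its CPM were 49.9, 50.8 and 55.9 CPM in the cytokine libraries, against 65.1, 64.9 and 59.0 CPM in the vehicle libraries. It fell without overlap (log2 fold change -0.26, SE 0.0593; edgeR, adjusted p = 4.48e-04). MRPL54 had 41.5 ± 3.83 CPM per kb in cytokine libraries and 33.8 ± 4.25 in vehicle libraries, and MRPS18B had 33.3 ± 0.326 CPM per kb in cytokine libraries and 29.7 ± 1.05 in vehicle libraries.

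Many members share a start region with another coding gene. In GENCODE 29, 28 members start within 1000 bases of a coding gene on the opposite strand that had at least 1 CPM, in 27 pairs with a named gene, of which MRPL46 and MRPS11 form 1. In 4 pairs both genes were called in the same direction, in 3 in opposite directions, and in 20 at least 1 gene was not called. Of the 27 partners, 5 were higher, 8 lower and 14 not called, where 57.1% of all tested genes were called. MRPL32 also starts 26 bases from AC010132.3, a coding model with a clone name that was left out of these counts and was higher, at 0.47 (edgeR, adjusted p = 1.92e-06). With it, 5 of 28 pairs had both genes called in the same direction. The pairs and MRPL30, MRPL42 and the members of the mitochondria-specific class, like INS and both mitochondrial rRNAs, were chosen for description after their values were seen.

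MRPL32 and PSMA2, which encodes an alpha subunit of the 20S proteasome, have starts 23 bases apart and both rose. PSMA2 had 52.4 ± 5.34 CPM in cytokine libraries and 33.7 ± 2.91 CPM in vehicle libraries, a log2 fold change of 0.65 (edgeR, adjusted p = 2.49e-08), against 0.31 for MRPL32. MRPS18B rose with PPP1R10, a regulator of protein phosphatase 1, which changed by 0.44. MRPS27 and PTCD2, for a mitochondrial RNA-binding protein, both fell, the partner at -0.34, and so did MRPL57 and SKA3, for a kinetochore protein, at -0.39. Annotated exons of MRPS27 and PTCD2 share 190 bases on opposite strands, and those of MRPL32 and PSMA2 share 24.

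MRPL30, for uL30m, and MITD1, for a protein of cytokinesis, have starts 21 bases apart and moved in opposite directions. MRPL30 had 25.4, 27.0 and 24.0 CPM in the cytokine libraries, against 29.4, 33.2 and 29.3 CPM in the vehicle libraries, with no overlap (log2 fold change -0.26; edgeR, adjusted p = 0.00263). MITD1 had 20.4 ± 0.344 CPM in cytokine libraries and 11.1 ± 1.33 CPM in vehicle libraries, also with no overlap (log2 fold change 0.84; edgeR, adjusted p = 3.33e-09). The MRPL32 and MRPL30 windows printed above hold both starts of their pair. MRPL14 rose while TMEM63B, for an ion channel subunit, was at -0.31, and MRPL52 fell while SLC7A7, for an amino acid transporter at about 1 CPM, was at 0.93.

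**Figure D4:**
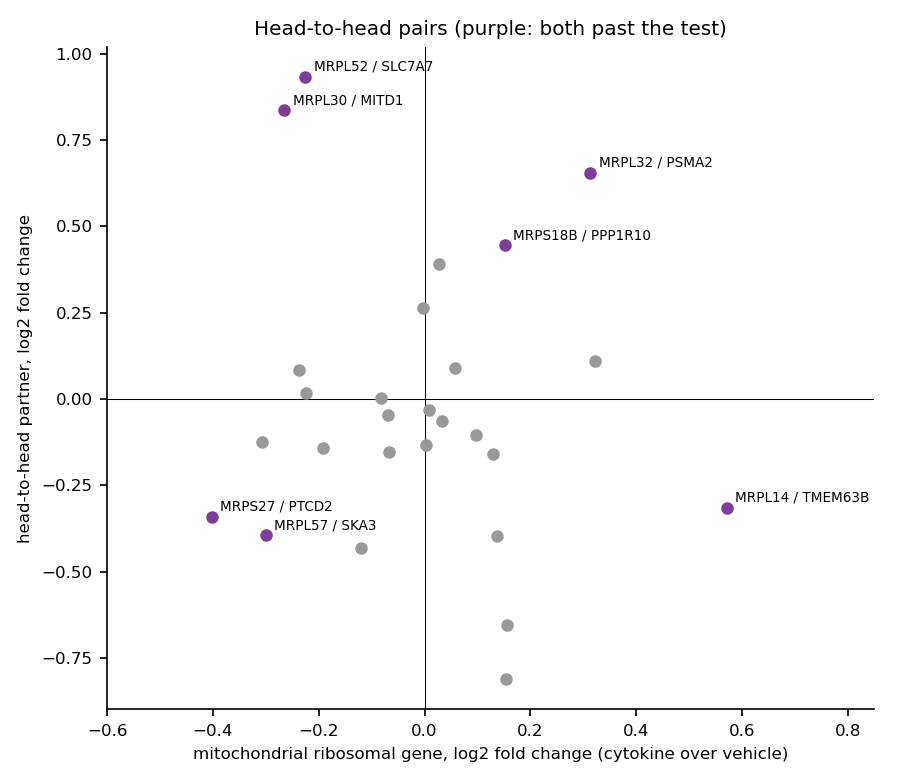
Each point is a head-to-head pair with a named partner, with the log2 fold change (cytokine over vehicle) of the mitochondrial ribosomal gene on the x axis and that of its partner on the y axis. The 7 labelled pairs have both genes called, 4 in the same direction and 3 in opposite directions.

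Reads of overlapping genes limit some members. In the annotation 14 members share exonic bases with a gene on the same strand and 23 with one on the opposite strand. The library kit keeps the strand, but the sources used here do not give the strand setting of the counting, so these members are uncertain. Among called members they include MRPS6, MRPS24, MRPS5, MRPL30, MRPS25, MRPS14, MRPS27, MRPL32, MRPL34 and MRPL13.

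Other parts of the mitochondrial translation apparatus were compared as lists. These lists and those below are to be read against 28.3% of all tested genes that were higher and 28.8% that were lower. Of 5 mitoribosomal proteins with other symbols, PTCD3 (mS39), at 106 ± 1.74 CPM in cytokine libraries and 85.4 ± 5.06 CPM in vehicle libraries, and GADD45GIP1 rose, by 0.30 and 0.21 on the log2 scale, and DAP3 (mS29), a GTP-binding protein, was lower at -0.19. Of 26 assembly factors, 3 rose and 11 fell, or 11.5% and 42.3%, with a median of -0.070. The GTPase gene NOA1 was at 22.5 ± 0.559 CPM in cytokine libraries and 39.8 ± 6.33 CPM in vehicle libraries (log2 fold change -0.78; edgeR, adjusted p = 2.96e-09), and the pseudouridine synthase gene RPUSD3 at -0.62. MPV17L2 and FASTKD2, both needed for assembly of the large subunit, rose by 0.55 and 0.35.

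Of 16 genes for translation factors, 4 rose and 2 fell, or 25% and 12.5%, with a median of 0.044. The release factor gene MTRF1L was at 29.9 ± 1.05 CPM in cytokine libraries and 18.5 ± 1.38 CPM in vehicle libraries (log2 fold change 0.70; edgeR, adjusted p = 3.94e-09) and the elongation factor gene GFM1 rose by 0.40. LRPPRC, which stabilises mitochondrial mRNAs, and TACO1, an activator of COX1 translation, were at -0.27 and -0.21. Of 12 genes for mitochondrial transcription and the nucleoid, 3 rose and 2 fell, or 25% and 16.7%. Among them were PNPT1, for polynucleotide phosphorylase, at 0.57, SUPV3L1, for an RNA helicase, at 0.41, POLG2 at -0.39 and TFAM, which packs mitochondrial DNA, at -0.18. Of 15 genes for import, processing and folding, 4 rose and 3 fell, or 26.7% and 20%, with TIMM44 at 0.38, LONP1 at 0.24, PMPCB at -0.31 and HSPD1 at -0.31.

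Of 11 nuclear regulators of mitochondrial genes, 9 were tested. PPRC1, for a coactivator of the PGC-1 family, had 61.5, 59.2 and 65.0 CPM in the cytokine libraries, against 35.0, 39.3 and 34.4 CPM in the vehicle libraries (log2 fold change 0.78; edgeR, adjusted p = 9.31e-12), and GABPB1, for the partner of the ETS factor GABPA, rose by 0.66. GABPB2 and NRF1 were lower, at -0.35 and -0.23. PPARGC1A and PPARGC1B had at most 6.5 and 10 counts in any library and were not tested.

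The RNA part of the mitoribosome was also measured. The RNAs of both ribosomal subunits were higher, MT-RNR1 of the small subunit at 599 ± 29.5 CPM in cytokine libraries and 521 ± 36.0 CPM in vehicle libraries (log2 fold change 0.20; edgeR, adjusted p = 5.28e-04) and MT-RNR2 of the large subunit at 0.12 (edgeR, adjusted p = 0.00545). In total, 10 of 15 mitochondrially encoded RNAs were higher, MT-ND2 and MT-ND5 the most at 0.25 and 0.20, MT-ND3 was lower at -0.27 with overlap between the groups, and the median was 0.13. Their sum was 1.07 times the vehicle level on the TMM scale and 0.932 times by library size alone, so the direction rests on the scaling.

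Cytosolic ribosomal protein genes, which build the ribosomes that make the mitoribosomal proteins, were lower in 64 of 77 genes and higher in 1, RPS12, at 0.38, with a median log2 fold change of -0.33. RPL3 and RPL5 were the lowest, at -0.92 and -0.85. They summed to 18477, 18785 and 19748 CPM in cytokine libraries, and to 24932, 26401 and 24270 CPM in vehicle libraries, a ratio of 0.754, where the 78 mitochondrial members had a ratio of 0.981. Of 76 tested nuclear-encoded subunits of the respiratory chain, whose complexes also hold the products of mitochondrial translation, 19 were higher and 15 lower, with a median of 0.015. These are shares of 25% and 19.7%, against 28.3% and 28.8% of all tested genes. NDUFA9 and SDHA rose by 0.65 and 0.57, and NDUFB1 and ATP5F1E were at -0.43 and -0.42. By library size alone the summed ratio of every list named here but the beta-cell markers was below 1.

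In the authors' deposited table, 9 members had an FDR under 0.05 and a positive log2 fold change and 15 a negative one. The share of all genes under that cutoff there was not counted, so these numbers do not set the members against other genes. Of the members, 23 were called there and in the edgeR fit with the same sign, with 0 in opposite directions.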

How the data were processed

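RNA was measured in 3 cytokine and 3 vehicle libraries, grouped by sample title. Total RNA libraries were made with a directional kit, per the labels' protocols. Per the submitters' processing notes, which give no roles, STAR 2.7.5a, HTSeq 0.12.4 and cutadapt 2.10 were used with GRCh38. For doses, times, annotation release, strand setting and reads with several matches, details are not given in the sources used here.

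An estimated count was deposited by the authors per gene and library, not normalised, of which 69.5% lay within 0.005 of a whole number. Per the file headers, their own test is deposited as an F score, p-value and FDR beside log2 values (fold change and mean CPM), used here only to compare calls.

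Counts were rounded to whole numbers, since the planned design assumed counts as deposited. The filter on genes was filterByExpr, and libraries were scaled with TMM and genes tested with edgeR 4.0.16 in R 4.3.3 (robust quasi-likelihood fit on group alone, Benjamini-Hochberg adjustment at 0.05 over 17847 genes). The script was tested on simulated data. Replicates of a group differed by 1.38 to 2.48 in chi-square per gene, so none was counted as a repeat. The SE of a log2 fold change came from the fold change and the square root of its F value. Member counts ran from 33.17 to 1849.5 per library, so counting error weighs most on genes at low levels and on vehicle replicate 1.

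The members and lists were chosen with earlier results of these data known. Values in every library were given for the 8 largest rises and 8 largest falls past the test with at least 5 CPM, the 2 highest members per kilobase of each subunit, the MRPS18 paralogs, MRPS30 and MRPS36, and changes were given for up to 2 higher and 2 lower genes of each other list. Places in the structure and the bacterial or mitochondrial origin followed the unified protein names. Sequences came from RefSeq (GRCh38.p14) and positions and overlaps from GENCODE 29. Alternatives were DESeq2 size factors, library size alone, DESeq2 1.42.0, no count filter, at least 1 CPM in 3 libraries, a replicate block, each library left out, glmTreat at a fold of 1.2 and a stricter adjusted p of 0.01. The fit on counts that were not rounded was added after seeing the data.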

Additional observations from a re-analysis of the deposited data

How the results depend on the processing

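With a smallest change of 1.2-fold required (glmTreat), 5673 of all genes were called in place of 10199, and 2 members were higher and 4 lower. Higher members, 10 in the edgeR fit, numbered 3 by library size alone, 5 with DESeq2 and 5 at an adjusted p of 0.01. Lower members, 20 in that fit, numbered 47 by library size alone, 9 with DESeq2 and 12 at 0.01. Over all genes 5057 were higher and 5142 lower in the edgeR fit. The counts were 2980 and 8779 by library size alone, 4276 and 3356 with DESeq2, and 4360 and 4131 at 0.01. Leaving out each library in turn gave 7 to 13 higher and 11 to 20 lower members. Of all tested genes, 4586 to 5088 were higher and 4369 to 4863 lower in these fits. MRPS33, MRPS5, MRPS18B, MRPS18A and MRPS18C turned to -0.036, -0.041, -0.050, -0.028 and -0.10 on the log2 scale by library size alone, the last 2 without a call in either fit. By construction that setting leaves out the composition factors (0.931 to 0.935 in cytokine libraries and 1.06 to 1.08 in vehicle libraries); the cause of the other shifts was not tested. The large-minus-small median difference stayed positive in every setting, at 0.063 to 0.097 by name. Scaling moves all genes by nearly the same amount and the stricter cutoffs keep the fold changes, so these settings could hardly alter it. With the replicate number as a block, 11 members were higher and 19 lower, where 5010 of all tested genes were higher and 5101 lower. Same-numbered libraries did not deviate together over all tested genes (r = 0.016, -0.036 and -0.056), so no pairing by number was seen. With 3 libraries in each group this cannot exclude a shared day or culture. Counts that were not rounded gave 10 higher and 20 lower members, against 5070 and 5134 of all tested genes. Over 22 named members and 15 settings, 281 values kept their call and direction, 40 lost the call, 4 gained it and 5 turned. Depth limits members at low levels most: the SE of the log2 fold change was largest in MRPS17, MRPS12, MRPS24 and MRPS28, at 0.126 to 0.139.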

Other observations

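Pseudogenes and antisense genes named after the mitochondrial ribosomal proteins lie outside the rule. Of 35 such pseudogenes, 34 had at most 3 counts in any library, and MRPS31P5 had 75.2, 71.9 and 77.8 estimated counts in cytokine replicates 1, 2 and 3, against 28.5, 50.7 and 86.1 in vehicle replicates 1, 2 and 3. On the TMM scale it was at 5.43 ± 0.382 CPM in cytokine libraries and 4.72 ± 0.292 CPM in vehicle libraries, with overlap. Of 4 antisense genes, 2 were tested. MRPL23-AS1 had 20.6, 20.9 and 20.1 estimated counts in cytokine replicates 1, 2 and 3, against 18, 16.6 and 29.5 in vehicle replicates 1, 2 and 3, and was not called (log2 fold change -0.35; edgeR, adjusted p = 0.246). MRPL20-AS1 was at 28.9 ± 1.58 CPM in cytokine libraries and 34.8 ± 1.46 CPM in vehicle libraries, with no overlap and a log2 fold change of -0.26 (edgeR, adjusted p = 0.00164). MRPL20 itself, with which it shares 139 exonic bases, had a log2 fold change of 0.11 and was not called.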
